A study of Mus musculus with 15 samples.

Results

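The genes described here are the 4 Tcf/Lef transcription factors of the mouse (*Lef1*, *Tcf7*, *Tcf7l1* and *Tcf7l2*), their co-activator β-catenin (*Ctnnb1*), and 5 genes that Wnt signaling induces or that hold β-catenin and the Wnt receptors in check (*Axin2*, *Lgr5*, *Nkd1*, *Rnf43* and *Apc*). They were chosen by name, and all 10 were found among the 23329 genes counted. Of these, 9 were tested, since *Rnf43* exceeded 1 CPM (counts per 1000000 gene reads) in only 1 tumor. Expression was measured by RNA sequencing in 15 mouse tumors, each from a different mouse. *EμMyc* tumors (n = 4) are B cell lymphomas of C57BL/6 mice that carry *c-Myc* under the immunoglobulin heavy chain enhancer, and *EμMyc/Casp2-/-* tumors (n = 3) are lymphomas of such mice that also lack caspase-2. *Th-MYCN* tumors (n = 4) are thoracic neuroblastomas of Sv129/C57BL6 mice that express MYCN from the tyrosine hydroxylase promoter in sympathetic neuroblasts, and *Th-MYCN/Casp2-/-* tumors (n = 4) are their caspase-2 deficient counterparts. No mouse was given a drug. Tumor onset was at 13 to 19 weeks of age for *EμMyc*, 8 to 12 weeks for *EμMyc/Casp2-/-*, 10 to 21 weeks for *Th-MYCN* and 15 to 24 weeks for *Th-MYCN/Casp2-/-*. Genotype was compared within each tumor type, and tumor type within each genotype. Strain, site and transgene all differ between the tumor types and cannot be told apart in the latter.

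Wnt ligands act by stopping the breakdown of β-catenin. Without Wnt, a destruction complex of *Apc*, Axin proteins and kinases marks β-catenin for degradation. With Wnt, β-catenin enters the nucleus and binds Tcf/Lef factors, which otherwise keep their targets silent together with Groucho/Tle co-repressors. *Axin2*, *Nkd1* and *Rnf43* are targets that dampen the signal, and *Lgr5* is a target that encodes a receptor for R-spondins, which keep Wnt receptors on the cell surface. *Lef1* and *Tcf7* (also called Tcf1) are best known from lymphocytes, where they guide T cell development, and *Lef1* is also made in early B cells. *Tcf7l1* and *Tcf7l2* (also called Tcf3 and Tcf4) act in epithelia, stem cells and the nervous system.

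Promoter sequences are shown for *Lef1*, *Tcf7* and *Tcf7l2*, the Tcf/Lef factors called in any comparison below, and for *Axin2*, a target widely used as a readout of β-catenin. RefSeq gave 15 promoters (250 bases before to 50 bases after a start, GRCm38.p6) for 8 members, and no sequence is printed for *Lgr5* or *Apc*. A Tcf/Lef core motif was searched on both strands as CTTTG followed by AA, by AT, by TA or by TT, and was found in 2 of the 15, beside 16.9% of 32851 promoters in all. Both promoters with a match are among those shown, beside 3 without one. Capitals mark the match, and each sequence runs 5′ to 3′ along the transcribed strand. The first 2 are *Lef1* starts 1 and 4, at chr3:131110047-131110346 and chr3:131156044-131156343 on the plus strand. The next is *Tcf7* start 1, at chr11:52282965-52283264 on the minus strand. The last 2 are *Tcf7l2* start 2, at chr19:55895071-55895370, and the *Axin2* start, at chr11:108920099-108920398, both on the plus strand.
*Lef1* start 1: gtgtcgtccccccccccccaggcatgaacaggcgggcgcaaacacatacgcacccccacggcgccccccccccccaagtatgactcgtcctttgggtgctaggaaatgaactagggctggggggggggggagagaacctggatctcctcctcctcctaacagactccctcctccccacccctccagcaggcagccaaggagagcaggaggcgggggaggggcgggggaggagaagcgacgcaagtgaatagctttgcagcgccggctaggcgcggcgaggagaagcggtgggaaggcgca
*Lef1* start 4: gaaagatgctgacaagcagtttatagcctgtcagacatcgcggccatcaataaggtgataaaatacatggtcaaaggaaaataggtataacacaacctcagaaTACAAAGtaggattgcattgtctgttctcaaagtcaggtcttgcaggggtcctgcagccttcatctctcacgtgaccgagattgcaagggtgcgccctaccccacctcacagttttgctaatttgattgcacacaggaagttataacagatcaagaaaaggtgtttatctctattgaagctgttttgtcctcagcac
*Tcf7* start 1: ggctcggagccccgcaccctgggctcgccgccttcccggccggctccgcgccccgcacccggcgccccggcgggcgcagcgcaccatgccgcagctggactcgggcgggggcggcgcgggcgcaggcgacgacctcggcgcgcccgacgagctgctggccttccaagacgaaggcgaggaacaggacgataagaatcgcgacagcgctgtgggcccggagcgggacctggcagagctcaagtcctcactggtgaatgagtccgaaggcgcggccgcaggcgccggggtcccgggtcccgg
*Tcf7l2* start 2: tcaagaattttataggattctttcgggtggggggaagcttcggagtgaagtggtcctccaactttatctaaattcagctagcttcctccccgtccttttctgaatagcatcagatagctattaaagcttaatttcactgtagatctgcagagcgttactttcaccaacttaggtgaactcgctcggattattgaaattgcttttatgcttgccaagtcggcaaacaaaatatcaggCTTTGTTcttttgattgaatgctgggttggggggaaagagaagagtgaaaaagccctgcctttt
*Axin2* start: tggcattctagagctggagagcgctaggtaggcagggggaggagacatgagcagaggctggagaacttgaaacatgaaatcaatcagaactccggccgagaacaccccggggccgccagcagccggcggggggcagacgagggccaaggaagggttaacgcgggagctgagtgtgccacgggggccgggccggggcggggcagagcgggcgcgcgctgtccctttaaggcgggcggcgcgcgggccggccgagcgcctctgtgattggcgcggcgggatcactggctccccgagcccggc
A match is a description of these letters only. The match lies 147 bases before *Lef1* start 4 and 14 bases before *Tcf7l2* start 2, and no match lies in the windows of *Lef1* start 1, *Tcf7* start 1 or *Axin2*.

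Each tumor had 4940464 to 17638029 gene reads in the column of second-strand counts, so that 3 reads corresponded to 0.173 to 0.586 CPM after scaling. The libraries kept no strand: this column held 49.6 to 50.2% of the reads counted on either strand. Exons of *Lef1*, *Axin2* and *Tcf7l1* overlap an antisense gene by 1208, 207 and 84 bases, and reads of the partners cannot be told apart. *Casp2*, the deleted gene, lay at 51.9 to 76.1 CPM in *EμMyc/Casp2-/-* against 125 to 203 CPM in *EμMyc* tumors, and at 39.6 to 80.2 CPM in *Th-MYCN/Casp2-/-* against 76.0 to 125 CPM in *Th-MYCN* tumors. The log2 fold change was -1.35 in lymphoma (LRT FDR 0.000400, QLF FDR 0.0536) and -0.79 in neuroblastoma (LRT FDR 0.101), where the ranges overlapped. Summed markers of B cells reached 1892 to 4849 CPM in lymphomas and 4.32 to 14.9 CPM in neuroblastomas, while those of sympathetic neuroblasts reached 1.73 to 24.6 and 2749 to 3976 CPM. A lymphoma, EuMycC2ko215, stood apart. It was the shallowest library and the only lymphoma of a female mouse, and its T cell markers summed to 1769 CPM against 129 to 368 CPM in the other 6 lymphomas.

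**Figure D1:**
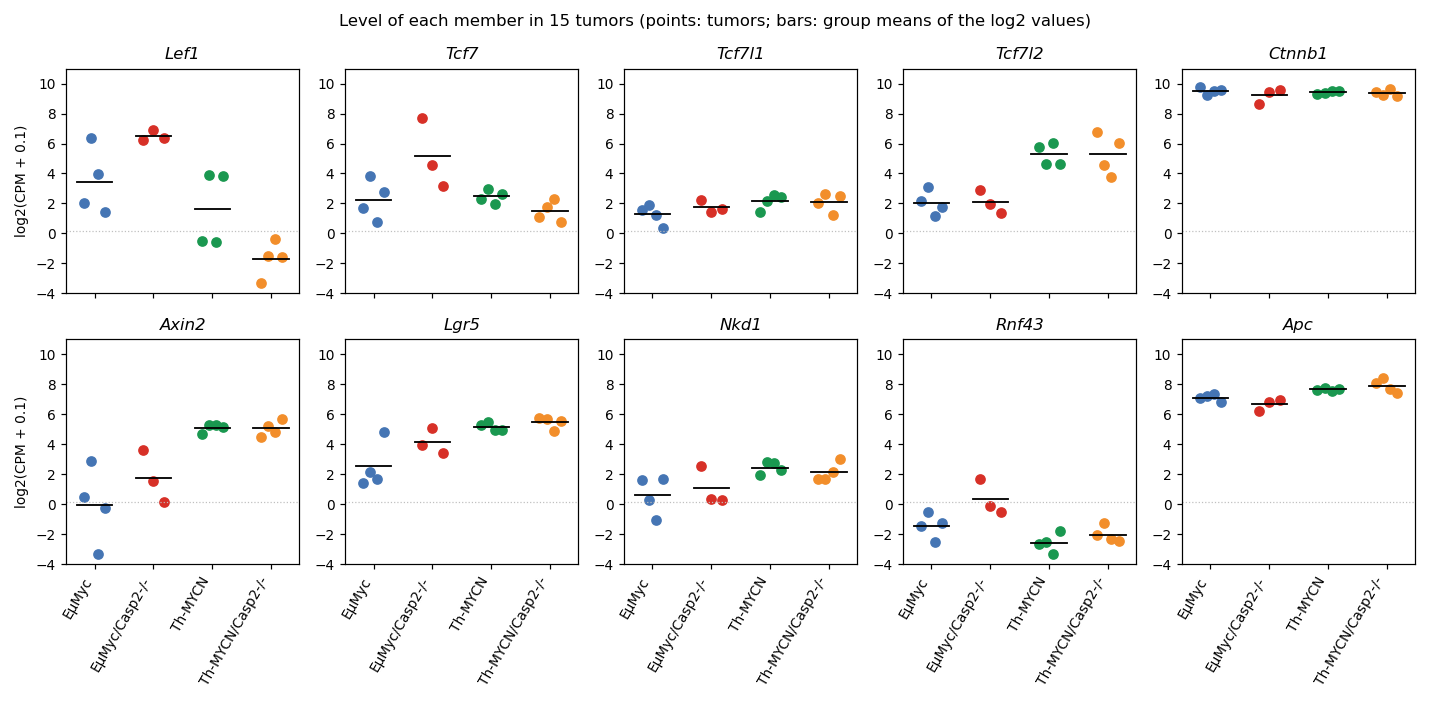
Level of each of the 10 genes in each tumor, as log2(CPM + 0.1), by group. Each point is 1 tumor, bars are means of the log2 values and the dotted line marks 1 CPM. *Lef1* runs from 0 to 119 CPM across the tumors, while *Ctnnb1* stays between 392 and 892 CPM.

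Expressed per kilobase of exon, so that genes can be compared, *Ctnnb1* was the most abundant member in every group. Its median was 204 CPM per kb in *EμMyc*, 194 in *EμMyc/Casp2-/-*, 189 in *Th-MYCN* and 178 in *Th-MYCN/Casp2-/-* tumors, and its range overlapped with that of no other member in any group. Below it, the order depended on the group. In *EμMyc* tumors *Apc* (median 10.8 CPM per kb) was followed by *Lef1* (2.76) and *Tcf7* (1.89), and from *Apc* downwards every member overlapped with its neighbour in the order. In *EμMyc/Casp2-/-* tumors *Lef1* (23.3 CPM per kb), *Tcf7* (9.13), *Apc* (8.74) and *Lgr5* (3.32) came next and overlapped with each other in turn, above *Tcf7l1* (0.949). In *Th-MYCN* tumors *Apc* (15.4 CPM per kb), *Tcf7l2* (9.04), *Axin2* (8.74) and *Lgr5* (7.44) stood above *Tcf7* and *Lef1* (both 2.10). In *Th-MYCN/Casp2-/-* tumors *Lgr5* (10.5 CPM per kb), *Tcf7l2* (10.0) and *Axin2* (7.68) followed *Apc* (18.1), and *Lef1* (0.071) and *Rnf43* (0.026) lay lowest.

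The makeup of the Tcf/Lef family also differed between tumors. On second-strand counts *Tcf7l2* held the highest share of the 4 factors in all 8 neuroblastomas, with 39.4 to 81.4% in *Th-MYCN* and 52.9 to 92.2% in *Th-MYCN/Casp2-/-* tumors. In each of the 7 lymphomas *Lef1* or *Tcf7* held the highest share. *Lef1* led with 73.8% in EuMyc743b, 70.6% in EuMyc829, 75.9% in EuMycC2ko239 and 82.7% in EuMycC2ko245, and *Tcf7* with 28.1% in EuMyc614, 58.3% in EuMyc835 and 76.2% in EuMycC2ko215. In EuMyc614 the lead rested on 36 reads of *Tcf7* and 46 of *Lef1* and passed to *Lef1* on either-strand (32.5% against 26.8%) and first-strand reads (36.2% against 24.5%). On first-strand reads *Lef1* also led in MYCN235 (39.4% against 35.9% for *Tcf7l2*), and in the other 13 tumors all 3 columns gave the same factor. The lymphomas of 1 genotype were thus not alike in which factor they held most of. The sum of the 4 factors was 4.27 to 32.1 CPM per kb in *EμMyc*, 28.2 to 105 in *EμMyc/Casp2-/-*, 13.7 to 18.3 in *Th-MYCN* and 5.76 to 26.8 in *Th-MYCN/Casp2-/-* tumors. These shares are a description, as no test was run on them.

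**Figure D2:**
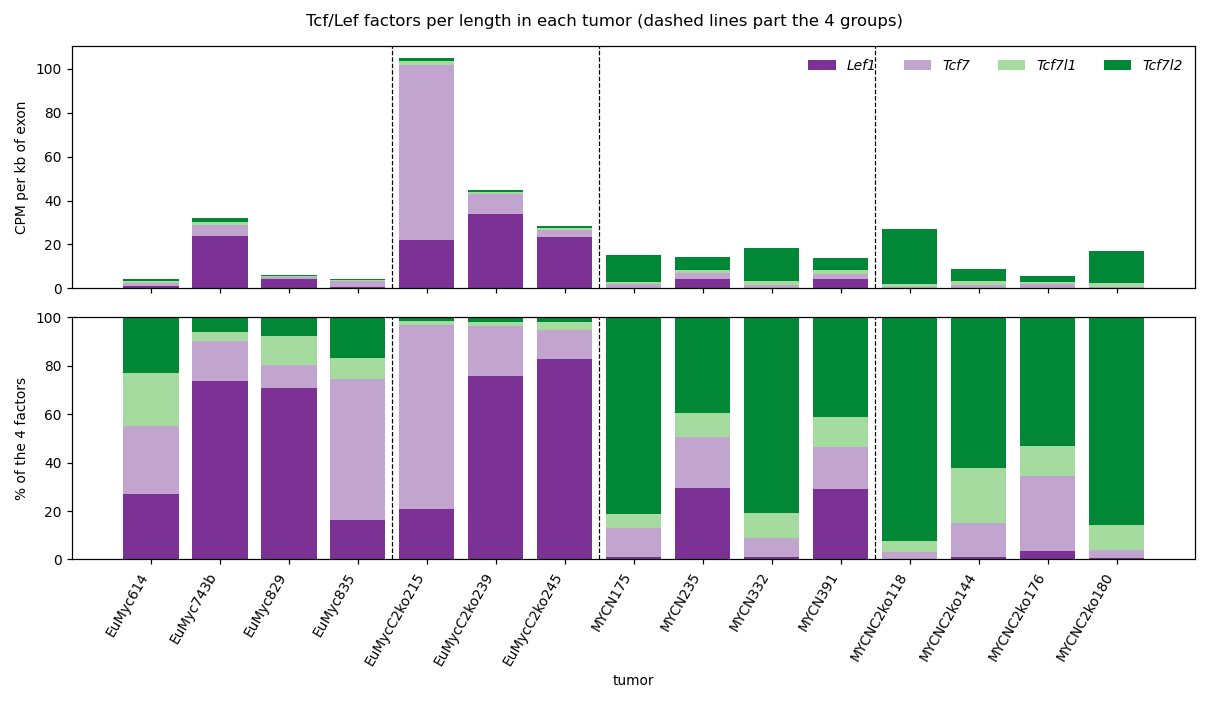
Tcf/Lef factors in each of the 15 tumors, as stacked CPM per kb of exon (top) and as the percent of their sum (bottom); dashed lines part the groups. On these second-strand counts *Tcf7l2* holds the highest share in all 8 neuroblastomas and *Lef1* or *Tcf7* in all 7 lymphomas.

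Between the neuroblastoma genotypes 1 of the 9 tested members passed the threshold, *Lef1*, which was lower in *Th-MYCN/Casp2-/-* tumors. A call needed a false discovery rate (FDR, Benjamini-Hochberg over 14880 genes) under 0.05 and a change over 2-fold by edgeR's likelihood ratio test (LRT), and the FDR of edgeR's quasi-likelihood F test (QLF) is given beside it. By the LRT 0.813% of all tested genes were called in this comparison, and 0.625% as lower. QLF called none of the members and 0.0336% of all genes. At an unadjusted LRT p under 0.05, 1 member passed, and DESeq2 called 1, without a share of all tested genes to set beside either count. None of the 9 members had groups without overlap, as 6.62% of all tested genes did.

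*Lef1* (chr3:131110471-131224356, plus strand) measured 0.611 CPM in MYCN175, 14.5 in MYCN235, 0.577 in MYCN332 and 14.1 in MYCN391, against 0, 0.257, 0.675 and 0.244 CPM in the *Th-MYCN/Casp2-/-* tumors MYCNC2ko118, MYCNC2ko144, MYCNC2ko176 and MYCNC2ko180. Thus 2 of 4 *Th-MYCN* tumors were high, while the other two lay within the range of the *Casp2-/-* tumors, where 0, 4, 7 and 3 reads were counted. The group means were 7.45 ± 7.92 (SD, n = 4) and 0.294 ± 0.280 CPM (SD, n = 4). The log2 fold change was -4.64 (SE 1.11, 95% interval -6.82 to -2.47, LRT FDR 0.0319, QLF FDR 0.339). Both high tumors were from male mice and both low *Th-MYCN* tumors from females, and the 1 male *Th-MYCN/Casp2-/-* tumor, MYCNC2ko180, had 0.244 CPM. With sex in the model the log2 fold change was -3.21 (LRT FDR 0.553). When the fit was repeated without each tumor in turn, 10 of 15 fits kept the call. These include the fits without a lymphoma, which is in neither compared group. Among the fits without a neuroblastoma, the call was kept only without MYCN175, MYCN332 or MYCNC2ko176. It was lost without MYCN235 (log2 fold change -4.09, LRT FDR 0.175), MYCN391 (-4.14, 0.177), MYCNC2ko118 (-4.22, 0.148), MYCNC2ko144 (-4.58, 0.174) or MYCNC2ko180 (-4.55, 0.111), and kept at -5.39 without MYCNC2ko176.

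T cell markers were low in all 8 neuroblastomas. The 13 T cell markers summed to 45.2 and 46.1 CPM in MYCN235 and MYCN391 and to 45.4 and 42.0 CPM in the other *Th-MYCN* tumors, and *Cd3d*, *Cd3e* and *Cd3g* each stayed at or below 0.450 CPM in all 8. *Cd247* made up 23.5 to 31.0 CPM of these sums in the 4 *Th-MYCN* tumors. *Bcl11b*, a transcription factor of T cells and neurons, was higher in MYCN235 and MYCN391 (3.78 and 6.18 CPM) than in MYCN175 and MYCN332 (1.65 and 2.54 CPM), and was at 1.06 to 6.94 CPM in *Th-MYCN/Casp2-/-* tumors. The 8 endothelial markers had a lower sum in *Th-MYCN/Casp2-/-* tumors. It was 68.2 to 107 CPM in *Th-MYCN* and 40.1 to 56.1 CPM in *Th-MYCN/Casp2-/-* tumors, and 2 of 8 were called lower, the other lists of markers having no call in this comparison. The endothelial sum was 75.5 and 68.2 CPM in the *Lef1*-high MYCN235 and MYCN391, and 107 and 75.7 CPM in the *Lef1*-low MYCN175 and MYCN332. The part of T cells or endothelial cells in the *Lef1* result was not tested. In bulk tumors fewer cells of a type and less RNA per cell cannot be told apart.

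The other Tcf/Lef factors passed no test between the neuroblastoma genotypes. *Tcf7* (chr11:52252371-52283014, minus strand) was at 4.76, 7.84, 3.81 and 6.24 CPM in *Th-MYCN* and at 2.09, 3.28, 4.72 and 1.62 CPM in *Th-MYCN/Casp2-/-* tumors, groups that overlapped. Its log2 fold change was -0.95 (95% interval -2.45 to 0.55, LRT FDR 0.961). *Tcf7l2* (chr19:55741820-55933654, plus strand) varied more within the genotypes than between them, with 55.1, 24.6, 65.6 and 25.0 CPM in *Th-MYCN* and 109, 24.1, 13.5 and 64.8 CPM in *Th-MYCN/Casp2-/-* tumors (log2 fold change 0.31, 95% interval -0.84 to 1.47). The 2 *Th-MYCN* tumors high in *Lef1* were the ones low in *Tcf7l2*. *Tcf7l1* (chr6:72626378-72789254, minus strand), mainly known as a repressor of Wnt targets, lay at 2.63 to 5.83 CPM in *Th-MYCN* and 2.22 to 6.04 CPM in *Th-MYCN/Casp2-/-* tumors, with a log2 fold change of -0.03 (95% interval -0.90 to 0.85).

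None of the Wnt targets among the members was called between the neuroblastoma genotypes. *Axin2* (chr11:108920349-108950783, plus strand), the scaffold of the destruction complex that Wnt induces, measured 26.1, 38.9, 38.6 and 35.9 CPM in *Th-MYCN* and 22.8, 36.8, 28.6 and 51.7 CPM in *Th-MYCN/Casp2-/-* tumors. In the *Lef1*-high MYCN235 and MYCN391 it was at 38.9 and 35.9 CPM, and in the *Lef1*-low MYCN175 and MYCN332 at 26.1 and 38.6 CPM. The log2 fold change of *Axin2* was 0.0033 with a 95% interval of -1.67 to 1.67, which still holds changes over 2-fold either way. *Lgr5* (chr10:115450311-115587780, minus strand) was at 38.8, 45.8, 31.4 and 31.0 CPM against 54.3, 51.1, 30.1 and 47.8 CPM (log2 fold change 0.32, 95% interval -0.86 to 1.50). *Nkd1* (chr8:88521354-88594884, plus strand), which binds Dishevelled and dampens Wnt signaling, was at 3.73 to 7.04 and 3.15 to 7.96 CPM (log2 fold change -0.25, 95% interval -1.48 to 0.99).

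*Ctnnb1* and *Apc* varied little among *Th-MYCN* tumors. *Ctnnb1* (chr9:120929216-120960507, plus strand) was at 642, 661, 710 and 735 CPM in *Th-MYCN* and at 699, 590, 791 and 575 CPM in *Th-MYCN/Casp2-/-* tumors. Its log2 fold change was -0.05, and the 95% interval of -0.46 to 0.36 excluded a 2-fold change. *Apc* (chr18:34220924-34322552, plus strand), the tumor suppressor at the core of the destruction complex, was at 198, 213, 191 and 209 CPM in *Th-MYCN* tumors, a 1.12-fold spread, and at 271, 339, 205 and 176 CPM in *Th-MYCN/Casp2-/-* tumors. Its log2 fold change of 0.29 had a 95% interval of -0.15 to 0.73 (LRT FDR 0.945). *Rnf43* (chr11:87662722-87735539, plus strand), a ubiquitin ligase that removes Wnt receptors, had 0 to 3 reads in each *Th-MYCN* and 1 to 5 reads in each *Th-MYCN/Casp2-/-* tumor, and a difference was not detectable at this depth.

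Between the lymphoma genotypes 1 of 9 tested members again passed the LRT threshold, here *Tcf7*, which was higher in *EμMyc/Casp2-/-* tumors. Onset was at 13 to 19 weeks in *EμMyc* and at 8 to 12 weeks in *EμMyc/Casp2-/-* tumors, without overlap. Genotype and age at onset therefore cannot be told apart here. Over all tested genes 1.44% were called and 1.14% as higher, 0.302% as lower. QLF called no member and 0.141% of all genes. DESeq2 called 1 member, and 1 member passed at an unadjusted LRT p under 0.05, again without a share of all tested genes beside them. None of the 9 members had groups without overlap, against 3.70% of all tested genes. The median log2 fold change over the 9 members was 0.46, beside -0.03 over all tested genes.

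*Tcf7* was at 3.15, 13.9, 1.57 and 6.80 CPM in the *EμMyc* tumors EuMyc614, EuMyc743b, EuMyc829 and EuMyc835, and at 210, 24.0 and 8.78 CPM in the *EμMyc/Casp2-/-* tumors EuMycC2ko215, EuMycC2ko239 and EuMycC2ko245. A single tumor thus lay far above the rest, and EuMycC2ko245 lay within the *EμMyc* range. The means were 6.37 ± 5.51 (SD, n = 4) and 81.0 ± 112 CPM (SD, n = 3), and the log2 fold change was 3.67 (SE 0.817, 95% interval 2.06 to 5.27, LRT FDR 0.00450, QLF FDR 0.149). Without EuMycC2ko215 it was 1.38 (LRT FDR 0.914), so that the call rested on this tumor, and it was kept in the 14 fits without another tumor, at 4.39 without EuMyc743b. Only the 2 compared groups in the fit gave an LRT FDR of 0.0734, and sex in the model gave 0.188.

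Most T cell markers and part of the pre-B cell markers were highest in EuMycC2ko215. *Cd3d*, a chain of the T cell receptor complex, was at 84.6 CPM in it and at 0.0875 to 3.92 CPM in the other 6 lymphomas, *Cd8a* at 362 against 0.437 to 9.85 CPM, and the kinase *Lck* at 412 against 15.7 to 49.6 CPM. *Rag1*, which recombines antigen receptor genes, was at 358 CPM against 0 to 69.4 CPM, and *Dntt*, which adds bases at their joints, at 299 against 0.262 to 63.7 CPM. Of the 13 T cell markers 11 were highest in this tumor, while *Zap70* (73.6 against at most 74.4 CPM) and *Cd2* (105 against at most 122 CPM) were not. Of the 7 pre-B cell markers *Rag1*, *Rag2*, *Dntt* and *Vpreb3* were highest in it, while *Igll1* (1.56 against at most 95.1 CPM), *Vpreb1* (4.30 against at most 60.1 CPM) and *Il7r* (45.7 against at most 173 CPM) were not. Between the genotypes 6 of 13 T cell markers were called higher in *EμMyc/Casp2-/-* tumors, beside 1.14% of all tested genes. So were 2 of 8 sympathetic neuroblast markers and the 1 melanocyte marker tested, and no other list had a call. The macrophage markers also summed highest in EuMycC2ko215, to 1659 CPM against 308 to 1102 CPM in the other 6 lymphomas. B cell markers were present in this tumor too, within 2834 to 3291 CPM over the 3 *EμMyc/Casp2-/-* tumors. The part of these cells in the *Tcf7* result was not tested.

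*Lef1* was high in all 3 *EμMyc/Casp2-/-* lymphomas, at 76.6, 119 and 81.8 CPM, but was not called. The *EμMyc* tumors ran from 2.55 CPM in EuMyc835 through 4.02 in EuMyc614 and 15.4 in EuMyc829 to 83.1 CPM in EuMyc743b. The groups overlapped only through EuMyc743b. The means were 92.6 ± 23.4 (SD, n = 3) and 26.2 ± 38.3 CPM (SD, n = 4), with a log2 fold change of 1.82 (95% interval -0.39 to 4.03, LRT FDR 0.661, QLF FDR 0.701). Without EuMyc743b the log2 fold change was 3.67 with an LRT FDR of 0.0734, still not past the threshold. In EuMyc743b the surrogate light chain genes of the pre-B cell receptor, *Igll1* and *Vpreb1*, were at 95.1 and 60.1 CPM, against at most 5.35 and 4.30 CPM in the other 6 lymphomas, and *Il7r* was at 173 against at most 63.8 CPM. The other 4 of the 7 pre-B cell markers were not highest there. *Rag1* was at 2.31 CPM (0 to 358 CPM in the others), *Rag2* at 0 (0.212 to 72.7), *Dntt* at 63.7 (0.262 to 299) and *Vpreb3* at 193 (160 to 399). The 7 together summed to 587 CPM in EuMyc743b, 1179 CPM in EuMycC2ko215 and 260 to 459 CPM in the other 5. The part of pre-B cells in the *Lef1* level was not tested.

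**Figure D3:**
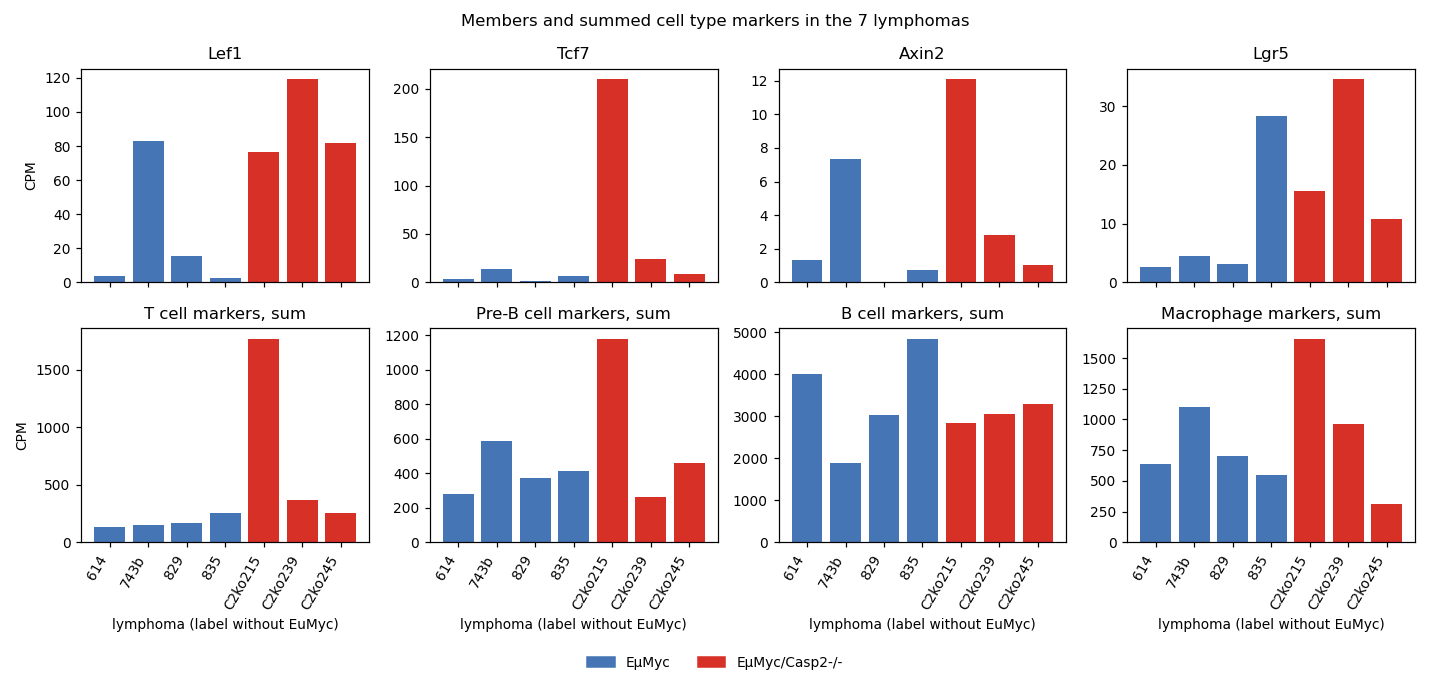
CPM of *Lef1*, *Tcf7*, *Axin2* and *Lgr5* and summed CPM of T cell, pre-B cell, B cell and macrophage markers in the 7 lymphomas, blue for *EμMyc* and red for *EμMyc/Casp2-/-*; each bar is 1 tumor. The *Tcf7* level of 210 CPM and the T cell marker sum of 1769 CPM stand in the same tumor, EuMycC2ko215.

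*Tcf7l1* and *Tcf7l2*, the factors with low levels in lymphoma, did not pass. *Tcf7l2* was at 4.37, 8.47, 2.13 and 3.29 CPM in *EμMyc* and 7.42, 3.76 and 2.52 CPM in *EμMyc/Casp2-/-* tumors (log2 fold change -0.02, 95% interval -1.30 to 1.27). *Tcf7l1* was at 1.17 to 3.68 and 2.59 to 4.69 CPM (log2 fold change 0.41, 95% interval -0.59 to 1.40).

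None of the targets was called between the lymphoma genotypes with all tumors in the fit, and the values of *Axin2* and *Lgr5* depended on single tumors. *Axin2* was at 1.31, 7.36, 0 and 0.743 CPM in *EμMyc* and at 12.1, 2.84 and 1.01 CPM in *EμMyc/Casp2-/-* tumors, counts of 0 to 86 reads, with a log2 fold change of 1.16 (95% interval -0.68 to 2.99, LRT FDR 0.780). The highest *EμMyc* value was that of EuMyc743b, the tumor high in *Lef1*, and the highest *EμMyc/Casp2-/-* value that of EuMycC2ko215, the tumor high in *Tcf7*. Without EuMyc743b *Axin2* was called higher (log2 fold change 2.91, LRT FDR 0.0387), and without EuMycC2ko215 the log2 fold change was -0.28. *Lgr5* was at 2.62, 4.45, 3.15 and 28.2 CPM in *EμMyc* and at 15.6, 34.6 and 10.7 CPM in *EμMyc/Casp2-/-* tumors (log2 fold change 1.09, 95% interval -0.20 to 2.37, LRT FDR 0.640). Only EuMyc835, at 28.2 CPM, reached the *EμMyc/Casp2-/-* range, and without it *Lgr5* was called higher (log2 fold change 2.58, LRT FDR 3.88e-06). *Nkd1* was at 2.97, 1.11, 0.394 and 3.19 against 5.86, 1.17 and 1.11 CPM (log2 fold change 0.46, 95% interval -0.94 to 1.85). *Rnf43* had 1 to 7 reads in each *EμMyc* tumor and 16, 10 and 6 reads in the *EμMyc/Casp2-/-* tumors, or 0.0787 to 0.599 against 3.13, 0.835 and 0.606 CPM. When every gene with a read was kept its log2 fold change was 2.16 (LRT FDR 0.249).

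*Ctnnb1* and *Apc* were lowest in EuMycC2ko215. *Ctnnb1* was at 892, 613, 719 and 761 CPM in *EμMyc* and at 392, 702 and 747 CPM in *EμMyc/Casp2-/-* tumors, with a log2 fold change of -0.28 (95% interval -0.73 to 0.17, LRT FDR 0.783). *Apc* was at 138, 146, 165 and 114 CPM against 75.0, 115 and 125 CPM, with a log2 fold change of -0.42 (95% interval -0.90 to 0.06, LRT FDR 0.618). Both intervals excluded a 2-fold change.

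The tumor types were next compared on a wild type background. *EμMyc* lymphomas were lower than *Th-MYCN* neuroblastomas in 4 of 9 tested members, *Tcf7l2*, *Axin2*, *Lgr5* and *Nkd1*, and higher in none. This comparison called 47.5% of all tested genes by the LRT, 28.5% as lower, so that 4 calls in 9 members are no more than the background. QLF called 3 members and 46.1% of all genes. The groups did not overlap for 5 of 9 members and for 59.4% of all genes.

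*Tcf7l2* was at 4.57 ± 2.76 CPM (SD, n = 4) in *EμMyc* and at 42.6 ± 21.0 CPM (SD, n = 4) in *Th-MYCN* tumors, 9.31-fold lower in lymphoma (log2 fold change -3.22, SE 0.596, LRT FDR 2.07e-06, QLF FDR 0.000497). *Axin2* was at 2.35 ± 3.38 and 34.9 ± 5.99 CPM, 14.8-fold lower (log2 fold change -3.88, SE 0.863, LRT FDR 0.000141, QLF FDR 0.00194). *Lgr5* was at 9.62 ± 12.4 and 36.8 ± 7.03 CPM, 3.83-fold lower (log2 fold change -1.94, SE 0.606, LRT FDR 0.00405, QLF FDR 0.0142). These 3 kept their calls whichever of the 15 tumors was left out, but the size moved for *Axin2*, to a log2 fold change of -5.65 without EuMyc743b, and for *Lgr5*, to -3.43 without EuMyc835. *Nkd1*, at 1.92 ± 1.38 and 5.53 ± 1.53 CPM, was called by the LRT alone (log2 fold change -1.53, LRT FDR 0.0321, QLF FDR 0.0538). The *Nkd1* call was lost without EuMyc743b (log2 fold change -1.33, LRT FDR 0.0969), EuMyc829 (-1.18, 0.0947), MYCN235 (-1.39, 0.0837) or MYCN332 (-1.44, 0.0725). *Apc* was also lower in lymphoma with no overlap between groups, by less than 2-fold (log2 fold change -0.53, LRT FDR 0.0328, QLF FDR 0.0390).

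*Lef1* and *Tcf7*, the lymphoid members of the family, were not called between *EμMyc* and *Th-MYCN* tumors. The log2 fold change was 1.82 for *Lef1* (95% interval -0.23 to 3.87, LRT FDR 0.132) and 0.17 for *Tcf7* (95% interval -1.32 to 1.66, LRT FDR 0.861). Without EuMyc743b both changed sign, to -0.028 for *Lef1* (LRT FDR 0.983) and -0.55 for *Tcf7* (LRT FDR 0.562). The lowest *EμMyc* tumors had less *Lef1*, at 2.55 and 4.02 CPM, than the 2 high *Th-MYCN* tumors, at 14.1 and 14.5 CPM. *Tcf7l1* had a log2 fold change of -0.84 (95% interval -1.74 to 0.06, LRT FDR 0.0983) and was called lower in the fit without MYCN175 (-1.03, LRT FDR 0.0493). *Ctnnb1* had a log2 fold change of 0.12 (95% interval -0.29 to 0.53), which excluded a 2-fold difference between the tumor types.

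On a *Casp2-/-* background 5 of 9 tested members passed, *Lef1* and *Tcf7* higher in lymphoma and *Tcf7l2*, *Axin2* and *Apc* lower. Of all tested genes 48.0% were called by the LRT, 20.5% as higher and 27.6% as lower, and QLF called the same number of members and 46.4% of all genes. The groups did not overlap for 5 of 9 members and for 54.8% of all genes. *Lef1* was at 76.6 to 119 CPM in *EμMyc/Casp2-/-* and at 0 to 0.675 CPM in *Th-MYCN/Casp2-/-* tumors (log2 fold change 8.28, SE 1.19, 95% interval 5.95 to 10.6, LRT FDR 7.51e-08, QLF FDR 0.000254). The size of this ratio rests on 0 to 7 reads in each neuroblastoma, and the log2 fold change was 9.03 without MYCNC2ko176. *Tcf7* was at 8.78 to 210 against 1.62 to 4.72 CPM (log2 fold change 4.78, SE 0.821, LRT FDR 5.32e-07, QLF FDR 0.000410), and at a log2 fold change of 2.54 without EuMycC2ko215 it was still called.

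*Tcf7l2* was at 2.52 to 7.42 CPM in *EμMyc/Casp2-/-* against 13.5 to 109 CPM in *Th-MYCN/Casp2-/-* tumors, 11.7-fold lower (log2 fold change -3.55, LRT FDR 5.94e-06, QLF FDR 0.000762), and at a log2 fold change of -2.93 without MYCNC2ko118. *Axin2* was at 1.01 to 12.1 against 22.8 to 51.7 CPM, 6.64-fold lower (log2 fold change -2.73, LRT FDR 0.0145, QLF FDR 0.0245). The *Axin2* call was lost without EuMycC2ko239 (-2.35, LRT FDR 0.0836) or EuMycC2ko245 (-2.25, LRT FDR 0.0710), and kept at -4.10 without EuMycC2ko215. *Apc* was at 75.0 to 125 against 176 to 339 CPM, 2.35-fold lower (log2 fold change -1.24, LRT FDR 3.32e-06, QLF FDR 0.000321), and fell just under the 2-fold limit without EuMycC2ko215 (-0.98). *Lgr5* was not called (-1.17, 95% interval -2.45 to 0.11, LRT FDR 0.123), but was without EuMycC2ko239 (-1.73, LRT FDR 0.0481). It was also called without EuMyc835 (-1.16, LRT FDR 0.00579). EuMyc835 is in neither compared group and enters only the shared fit, and the fold change hardly moved without it. *Nkd1* likewise was called only without EuMycC2ko215 (-1.95, LRT FDR 0.0178, against -0.83 and 0.320 with it). *Tcf7l1* and *Ctnnb1* had log2 fold changes of -0.41 (95% interval -1.39 to 0.57) and -0.11 (95% interval -0.56 to 0.33). *Rnf43* was higher in lymphoma when every gene with a read was kept (log2 fold change 3.03, LRT FDR 0.00178), on 6 to 16 reads against 1 to 5.

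**Figure D4:**
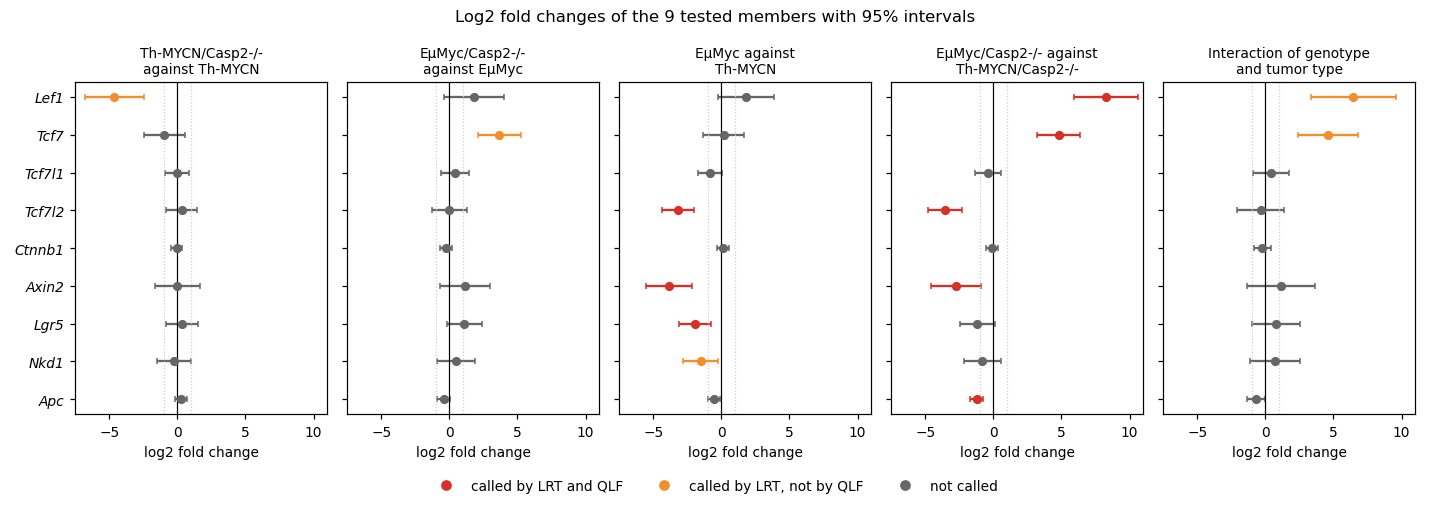
Log2 fold changes of the 9 tested members with 95% intervals in the 4 comparisons and for the interaction; red marks calls by LRT and QLF, orange calls by LRT only and grey no call, and dotted lines mark a 2-fold change. Calls by both tests appear only between tumor types, and *Ctnnb1* lies within 2-fold throughout.

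Whether the difference between genotypes varied with tumor type was tested as an interaction, the lymphoma log2 fold change minus that of neuroblastoma. By the LRT 2 of 9 members passed, *Lef1* and *Tcf7*, both in the positive direction, beside 0.914% of all tested genes and 0.726% in that direction. QLF passed none of the members and 0.0538% of all genes. DESeq2 passed 2 members, and 3 had an unadjusted LRT p under 0.05, counts given without a share of all tested genes. For *Lef1* the difference was 6.46 (SE 1.58, 95% interval 3.36 to 9.56, LRT FDR 0.0220, QLF FDR 0.318), made of 1.82 in lymphoma and -4.64 in neuroblastoma. It was kept in 9 of these 15 fits and lost without EuMyc829 (6.26, LRT FDR 0.0605), MYCN235 (5.91, 0.0788), MYCN391 (5.95, 0.0680), MYCNC2ko118 (6.03, 0.0591), MYCNC2ko144 (6.39, 0.0697) or MYCNC2ko180 (6.38, 0.0643), and kept at 8.31 without EuMyc743b and 7.20 without MYCNC2ko176. For *Tcf7* it was 4.62 (SE 1.12, 95% interval 2.42 to 6.81, LRT FDR 0.0153, QLF FDR 0.318), made of 3.67 and -0.95. This was lost without EuMycC2ko215 (2.32, LRT FDR 0.443), MYCN235 (4.40, 0.0534), MYCNC2ko118 (4.46, 0.0600) or MYCNC2ko180 (4.42, 0.0562), and kept at 5.33 without EuMyc743b. *Lgr5* had a difference of 0.77 (LRT FDR 0.926), which was called at 2.26 without EuMyc835 (LRT FDR 0.0115). The other 6 members had LRT FDRs of 0.480 or more.

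Other genes of the pathway were taken from role lists. Of 95 genes, 94 were counted and 82 tested. In neuroblastoma 2 of 82 were called between genotypes by the LRT, beside 0.813% of all tested genes. Both were lower in *Th-MYCN/Casp2-/-* tumors, beside 0.625% of all tested genes, and both came from the list of reported targets. QLF called none, beside 0.0336%. *Mitf*, the melanocyte lineage factor, was at 3.66, 10.4, 4.27 and 19.3 CPM in *Th-MYCN* and at 2.45, 2.76, 1.64 and 1.71 CPM in *Th-MYCN/Casp2-/-* tumors, without overlap (log2 fold change -2.13, SE 0.571, LRT FDR 0.0413, QLF FDR 0.257). Its highest values were in MYCN235 and MYCN391, the tumors high in *Lef1*. The 5 melanocyte markers summed to 0.550 to 0.803 CPM in *Th-MYCN* and 0.193 to 1.83 CPM in *Th-MYCN/Casp2-/-* tumors. Among them *Dct* and *Tyr* were at 0 in all 8 neuroblastomas. *Ascl2*, a target that marks intestinal stem cells, was at 0.428, 4.79, 6.29 and 9.20 CPM against 0.648, 0.129, 0 and 0.487 CPM, with overlap (log2 fold change -3.98, SE 0.978, LRT FDR 0.0308, QLF FDR 0.238). Of the fits without 1 tumor, 8 of 15 kept the *Mitf* call, counting those without a lymphoma, which is in neither compared group. Among the fits without a neuroblastoma, the call was kept only without MYCN175 or MYCN332. It was lost without EuMycC2ko239 (log2 fold change -2.12, LRT FDR 0.0509), MYCN235 (-2.07, 0.183), MYCN391 (-1.50, 0.473) or any of the 4 *Th-MYCN/Casp2-/-* tumors (-2.26 to -2.01, 0.127 to 0.159). The *Ascl2* call was kept in 8 of 12 fits, and among those without a neuroblastoma only in the fit without MYCN175. It was lost without any *Th-MYCN/Casp2-/-* tumor (-4.57 to -3.59, 0.0533 to 0.181). Without MYCN235, MYCN332 or MYCN391 *Ascl2* was no longer among the genes tested. In lymphoma none of the 82 was called by the LRT or by QLF, beside 1.44% and 0.141% of all tested genes. At an unadjusted LRT p under 0.05, 6 passed in lymphoma, 6 in neuroblastoma and 5 in the interaction. The share of all tested genes at this p is not given here, so these counts have no background. The interaction called *Mitf* alone by the LRT (3.21, LRT FDR 0.0284, QLF FDR 0.318), beside 0.914% of all tested genes. The call was kept in 5 of 15 such fits. It was lost without EuMyc743b, EuMyc829, EuMyc835, EuMycC2ko215, MYCN235, MYCN391 or any *Th-MYCN/Casp2-/-* tumor (2.58 to 3.34, LRT FDR 0.0511 to 0.162).

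Between tumor types many pathway genes were called, as were many genes overall. In *EμMyc* against *Th-MYCN* tumors 9 of 82 were higher and 34 lower, against background shares of 18.9% and 28.5%, and the median log2 fold change over the 82 was -0.49, beside -0.04 over all tested genes. On the *Casp2-/-* background 11 were higher and 32 lower, against 20.5% and 27.6% of all tested genes, with a median of -0.69 beside -0.05. QLF called 43 in each, beside 46.1% and 46.4% of all tested genes. The counts by role list that follow are to be read beside the same LRT shares over all tested genes. The adhesion partners of β-catenin had the lowest median on both backgrounds, -2.87 and -2.55, with 5 of 8 lower and 1 higher in each. *Ctnna2*, *Ctnnd2* and *Cdh2*, catenins and a cadherin of neural cells, were at means of 0.0787, 0.277 and 0.778 CPM in *EμMyc* and 104, 72.0 and 94.9 CPM in *Th-MYCN* tumors. Of other reported targets 9 of 16 were lower and 2 higher in *EμMyc*, and 7 lower and 3 higher on the *Casp2-/-* background, with *Nrcam*, a neural adhesion molecule, at 0.491 against 104 CPM and *Ephb2* at 3.94 against 65.8 CPM.

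The destruction complex and Dishevelled genes held 6 of 14 lower and 1 higher in *EμMyc* tumors, and 6 lower and none higher on the *Casp2-/-* background. *Apc2*, the neural paralog of *Apc*, had the largest change of that list, with 0.692 against 337 CPM (log2 fold change -8.86) and 1.05 against 457 CPM (-9.05). Of the co-repressors 6 of 14 were lower and 2 higher, then 5 and 3, with *Ctnnbip1*, which keeps β-catenin from Tcf factors, at 5.42 against 91.4 CPM and *Tle1* at 26.7 against 91.5 CPM. Of the co-activators 2 of 11 were lower and 1 higher on both backgrounds. *Bcl9*, which links β-catenin to Pygo, was lower in *EμMyc* (18.3 against 75.3 CPM), *Cdc73* higher (75.1 against 32.6 CPM, with a log2 fold change of 0.95, under 2-fold, without EuMyc829), and *Pygo1* was at 0 in all 3 *EμMyc/Casp2-/-* tumors against a mean of 8.48 CPM.

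The feedback and receptor turnover genes showed both directions. In *EμMyc* tumors 4 of 8 were lower and 1 higher, and on the *Casp2-/-* background 4 and 2. *Nkd2*, the paralog of *Nkd1*, was at 0.254 against 8.47 CPM (log2 fold change -4.97), and *Notum*, an enzyme that inactivates Wnt ligands, at 2.08 against 0.0309 CPM (5.66). The R-spondin receptor *Lgr4* was lower in *EμMyc/Casp2-/-* than in *Th-MYCN/Casp2-/-* tumors (3.20 against 35.4 CPM, -3.52). Of 11 receptors 2 were lower and 1 higher, then 3 and 1. *Fzd3* was at 0.482 against 147 CPM in *EμMyc* and *Th-MYCN* tumors (-8.22), and *Fzd9* was higher in lymphoma on both backgrounds (3.78 and 2.98).

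**Figure D5:**
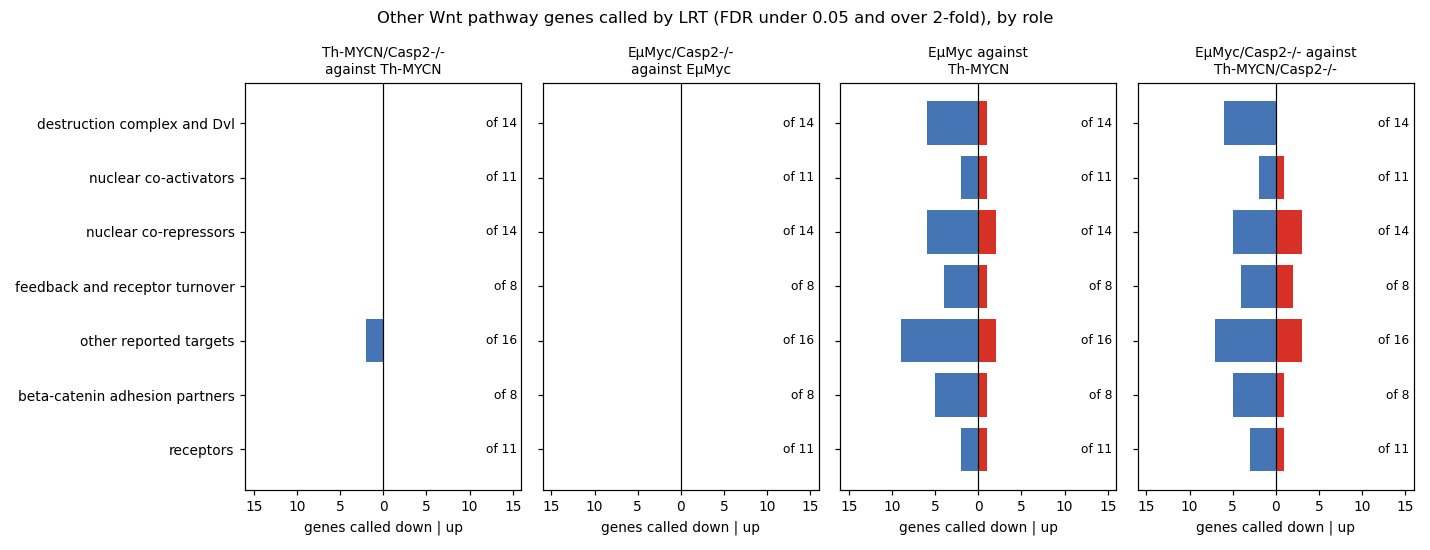
Number of other Wnt pathway genes called higher (red) or lower (blue) by the LRT in each role list and comparison, with the number tested at the right. Calls are 2 in neuroblastoma and 0 in lymphoma between genotypes, and 43 of 82 between tumor types on each background. Of all tested genes, 47.5% and 48.0% were called between tumor types.

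Genes whose log2 CPM followed *Lef1* or *Tcf7* most closely are given as a description, over tumors that share genotype, stage and depth differences. Across the 7 lymphomas *Lef1* was followed by *Rab27a* (Pearson r = 0.964 among 11515 genes ranked, and 0.989 without the 2 tumors farthest from the median), *Trim37* (0.959, 0.801) and *Arhgdig* (0.947, 0.697). *Tcf7* was followed there by *Extl3* (0.992, 0.991), *Naalad2* (0.987, 0.918) and *Zdhhc3* (0.986, 0.912). Across the 8 neuroblastomas the genes nearest to *Lef1*, of 12734 ranked, were *Clpb* (0.957, 0.568), *Zfp36l2* (0.957, 0.782) and *Parvb* (0.956, 0.864). The second value for *Lef1* leaves out MYCN235 and MYCN391, and the other neuroblastomas had only 0 to 10 *Lef1* reads each. Those nearest to *Tcf7* were *Ttc39a* (0.950, 0.928), *Parvb* (0.944, 0.944) and *Zcchc4* (0.942, 0.890). In the 2 tumors high in *Lef1*, *Clpb*, a mitochondrial disaggregase, was at 240.5 and 276 CPM, against 49.0 to 96.8 CPM in the other 6 neuroblastomas. *Parvb*, an actin-binding adaptor of integrin complexes, was thus near both. No member was among the 3 nearest genes of either factor.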

How the data were processed

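Poly(A) RNA was sequenced as single-end 50-base reads and aligned by the authors with STAR to GRCm38. They deposited counts per gene and tumor on either, the first and the second strand, with the annotation release not given in the sources used here. As in the study's methods, second-strand counts were used. Rows naming no gene, left out here, held 57.1 to 60.5% of uniquely mapped reads in that column and 14.5 to 20.8% on either strand. Genes over 1 CPM in at least 3 tumors (14880) were fitted in edgeR 4.0.16 (R 4.3.3) with TMM scaling and 4 group means over all 15 tumors. The LRT was the main test, with the quasi-likelihood test beside it. CPM are TMM-scaled, and log2 fold changes carry Wald 95% intervals. DESeq2 1.42.0 and the other alternatives are given in the closing section. The code was tested on simulated data. Coordinates and exon lengths come from GENCODE vM21 (GRCm38). Sex was read from the study's supplementary sample list.

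All 10 members are named. Of other Wnt genes, those called between genotypes or in the interaction are named, and between tumor types genes are taken from the 3 largest changes of each list without overlap. The members, lists and rules were chosen with earlier results of these data known. Replicates are tumors of different mice, and pairs of libraries within a group differed beyond counting noise (chi-square per degree of freedom 16.8 or more). Intervals for reads cover counting error only. A further *EμMyc/Casp2-/-* tumor was left out of the tests by the study's authors, who found its expression a strong outlier. It was not analysed here, so the 3 tumors of this group are those left after a choice made on expression.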

Additional observations from a re-analysis of the deposited data

Results flagged for a closer look

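In 2 of 30 groups of members tested for a tumor far from the others (chance flags about 1 in 20), a single *EμMyc* tumor stood out. *Lef1* in EuMyc743b was at 83.1 CPM against 2.55 to 15.4 CPM in the other *EμMyc* tumors, a gap of 0.841 of the range of the group. *Lgr5* in EuMyc835 was at 28.2 CPM against 2.62 to 4.45 CPM, a gap of 0.929 of the range. The difference between genotypes varied with tumor type by the interaction test for *Lef1* (6.46 on the log2 scale, LRT FDR 0.0220, QLF FDR 0.318) and for *Tcf7* (4.62, LRT FDR 0.0153, QLF FDR 0.318).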

How the results depend on the processing

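No paired analysis was possible because the labels give no replicate numbers shared between groups. The 15 fits that each left out a tumor gave 0 to 1 members called in neuroblastoma, 0 to 2 in lymphoma, 3 to 5 and 4 to 6 between tumor types, and 0 to 3 in the interaction. The genotype and interaction calls of members fell to 0 under the quasi-likelihood test, and under the quasi-likelihood test on either-strand counts, which was chosen after seeing the data. Sex in the model also gave 0 in both genotype comparisons, and a fit of the compared groups only gave 0 in lymphoma. The quasi-likelihood test gave 0 other Wnt genes in neuroblastoma and in the interaction. The *Nkd1* call between *EμMyc* and *Th-MYCN* was lost on either-strand (log2 fold change -1.24, LRT FDR 0.107) and first-strand counts (-0.9995, 0.227) and with sex in the model (LRT FDR 0.0643). Values near 0 changed sign. In neuroblastoma *Tcf7l1* was 0.30 with onset in the model, and *Axin2* was -0.020 without scaling, -0.0025 on first-strand counts and -0.056 with sex. In lymphoma *Tcf7l2* was 0.028 with DESeq2 and with RLE scaling and 0.032 without scaling, and *Casp2* between the *Casp2-/-* tumor types was -0.012 on first-strand counts. Ranges over the left-out tumors that crossed 0 were, in neuroblastoma, -0.21 to 0.20 for *Tcf7l1*, -0.31 to 0.65 for *Tcf7l2*, -0.13 to 0.033 for *Ctnnb1* and -0.23 to 0.17 for *Axin2*. In lymphoma they were -0.53 to 0.46 for *Tcf7l2*, -0.28 to 2.91 for *Axin2* and -0.73 to 0.84 for *Nkd1*. Between wild type tumor types they were -0.028 to 2.37 for *Lef1* and -0.55 to 0.50 for *Tcf7*, and between *Casp2-/-* types -0.29 to 0.18 for *Ctnnb1* and -0.093 to 0.29 for *Casp2*. In the interaction they were -0.85 to 0.29 for *Tcf7l2*, -0.41 to 0.0093 for *Ctnnb1*, -0.28 to 2.90 for *Axin2* and -0.48 to 1.08 for *Nkd1*. Of 477 other values of members, 454 kept direction and side of the threshold under settings that kept all tumors. The causes were not tested. With 3 or 4 tumors a group and at most 16 reads of *Rnf43* in any tumor, small changes of low members could not be seen.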
